A study of Mus musculus with 36 samples.

Results

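The 44 genes of DNA replication and S phase described here were chosen by name, from the 55536 genes listed in every count table. They encode the proteins that license and fire replication origins, copy the DNA, supply the nucleotides and chromatin proteins for the copy, and admit a cell to S phase. All 44 were counted in every library, at 147 to 15173 read pairs per gene and library, and all passed the filter on low counts. The libraries came from 36 samples of mouse brown pre-adipocytes, with 3 libraries for each of 2 clones, 2 genotypes and 3 days. Every sample lacked its own Rxra, which had been disrupted with Cas9 in a clonal pre-adipocyte line, and the lines carry the clone numbers 48 and 66. A retrovirus had returned either wild-type RXRα (RxraWT) or RXRα with an alanine in place of the serine whose phosphorylation insulin induces (RxraSA), under selection with hygromycin. Day 0 cells were confluent and had been grown with insulin and triiodothyronine, day 2 cells had then received dexamethasone, isobutylmethylxanthine and indomethacin as well, and day 6 cells had been returned to differentiation medium without these inducers. Each clone stands for 1 edited cell, and the libraries analysed here include no line with intact Rxra. The series describes the 3 libraries of a line and day as technical replicates and the methods describe independent cultures, so a p-value measures only the spread between these libraries.

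Before S phase, the origin recognition complex, Cdc6 and Cdt1 load the Mcm2 to Mcm7 ring on DNA. Cdc45 and the GINS proteins then turn the ring into a helicase, and polymerases held by the PCNA clamp copy both strands. Many of these genes are transcribed under E2F factors, which cyclin E and its kinase release from the retinoblastoma family. Confluent pre-adipocytes given an adipogenic mixture can divide again for a short time, which is called clonal expansion, before they leave the cell cycle and fill with lipid.

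Total counts lay between 11351078 and 24349263 per library, and levels are given as counts per 1000000 counted read pairs (CPM) scaled by the TMM factors of edgeR. The summed CPM of 6 adipocyte markers ranged over 123 to 222 CPM at day 0, 3525 to 6441 at day 2 and 6256 to 10068 at day 6, and that of 6 pre-adipocyte or stromal markers over 249.6 to 455 CPM at day 0, 35.3 to 104 at day 2 and 42.4 to 171 at day 6. Dlk1 and Thy1 of the latter list had medians under 1 CPM on every day. Cd34 of that list had medians of 2.19, 0.221 and 0.36 CPM on days 0, 2 and 6. Of the 8 brown adipocyte markers, Ucp1, Cidea, Prdm16, Dio2 and Zic1 had medians under 1 CPM on every day, and Cox8b had a median of 37.4 CPM at day 6. The other 2 had higher medians, Ebf2 with medians of 8.51, 21.9 and 21.3 CPM and Ppargc1a with medians of 13.3, 20.1 and 23.0 CPM on days 0, 2 and 6. Ebf2 varied widely between libraries, from 0.14 to 31.6 CPM at day 0, 0.508 to 79.5 at day 2 and 0.799 to 63.4 at day 6. The 4 macrophage and leukocyte markers summed to at most 11.6 CPM in any library, nearly all of it Cd68 (medians 6.71, 3.83 and 8.0 CPM), with Csf1r at medians under 1 CPM and Ptprc and Adgre1 at medians of 0. The 3 endothelial markers (Pecam1, Cdh5 and Kdr) summed to at most 0.88 CPM and the 3 muscle markers (Myod1, Myog and Ckm) to at most 0.344 CPM. Rxra read 90.5 to 232 CPM at day 0 (median 167), 403 to 718 at day 2 (median 579) and 185 to 350.3 at day 6 (median 240.2). Counts per gene cannot tell the returned Rxra from transcripts of the edited locus, so they do not check the genotype labels.

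Most replication genes were lowest at day 6. Of the 44 members, 30 were lower at day 6 than at day 0 and 5 were higher, by edgeR's quasi-likelihood test with Benjamini-Hochberg adjustment over all 17589 genes tested and a threshold of 0.05. Values given with a standard error (SE) are log2 fold changes from this test. Among all genes, 33.3% were lower and 34.0% higher in that comparison, against 68.2% and 11.4% of the members. Between day 2 and day 6, 37 members fell and 1, Cdt1, rose, where 29.7% of all genes fell and 31.1% rose. Between day 0 and day 2 the members split, with 18 higher (40.9%, against 36.9% of all genes) and 9 lower (20.5%, against 35.9%). The share that rose by day 2 was thus near that of all genes. The median log2 fold change of the members was 0.028 from day 0 to day 2, -0.50 from day 2 to day 6 and -0.44 from day 0 to day 6, where the medians of all genes were 0.017, 0.0088 and -0.0046. In RNA from whole cultures, fewer cycling cells and less RNA per cell cannot be told apart. Scaling by library size alone shifted the median of all genes by -0.31 from day 0 to day 2 and by -0.23 from day 0 to day 6. With that scaling, 33.2% of the genes called at day 2 against day 0 were higher, against 50.7% with TMM, and 6 members were called higher and 23 lower. The fall by day 6 was called for 38 members under it.

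**Figure D1:**
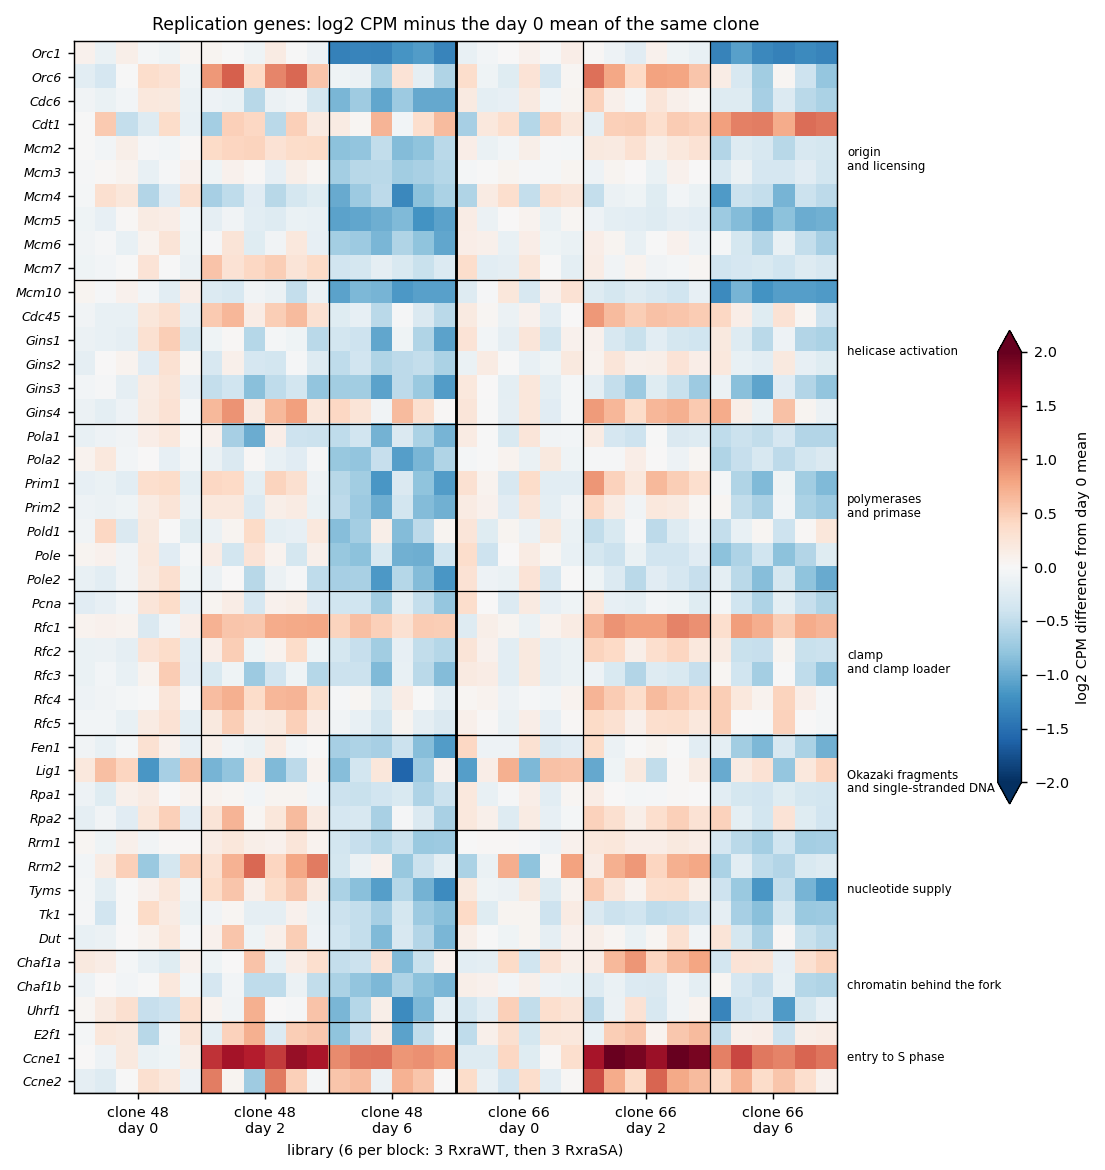
Each row is 1 of the 44 members, grouped by role, and each column 1 of the 36 libraries, in blocks of 6 by clone and day. The colour gives log2 CPM minus the mean of the 6 day 0 libraries of the same clone, from blue (lower) to red (higher). The day 6 blocks are mostly blue in both clones, the day 2 blocks are mixed, and Ccne1 and Rfc1 are red at days 2 and 6.

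By the 3 tests of a pair of days, 13 members were not called different at day 2 and fell by day 6, among them Orc1, Cdc6, Mcm3, Mcm6, Pcna and Fen1. Another 7 rose by day 2 and ended below day 0 (Mcm2, Mcm7, Prim1, Rfc2, Rrm1, Rrm2 and Tyms), and 7 rose by day 2 and fell back to a level not called different from day 0 (Orc6, Cdc45, Rfc4, Rfc5, Rpa2, Chaf1a and E2f1). The day 2 rises of Mcm7 and Rfc2 were small (0.20 and 0.23) and were not called under 9 and 7 of 17 alternatives, DESeq2 among them (0.15 and 0.18), and both turned with library size alone (-0.10 and -0.078). Single replicates ended them too, each of clone 48 and clone 66 replicate 3 for Mcm7 (0.13 to 0.16), and clone 48 replicate 2 and clone 66 replicates 2 and 3 for Rfc2 (0.15 to 0.18). A further 7 fell at both steps (Mcm4, Mcm5, Mcm10, Pola1, Pole2, Tk1 and Chaf1b). Gins4, Rfc1 and Ccne1 rose, fell back in part and ended above day 0. The median over the 12 libraries of a day was lowest at day 6 for 37 of the 44 members. It was highest at day 2 for 24 members, at day 0 for 19 and at day 6 for Cdt1 alone. Levels per length, as CPM per kilobase of exon (FPKM), differed widely between members. The largest day 0 medians were those of Mcm4 (145 FPKM), Mcm6 (129.8) and Pcna (114), and the smallest was that of Orc1 (6.42). The same 3 led at day 6, with 86.5 FPKM for Pcna, 86.3 for Mcm6 and 86.3 for Mcm4.

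**Figure D2:**
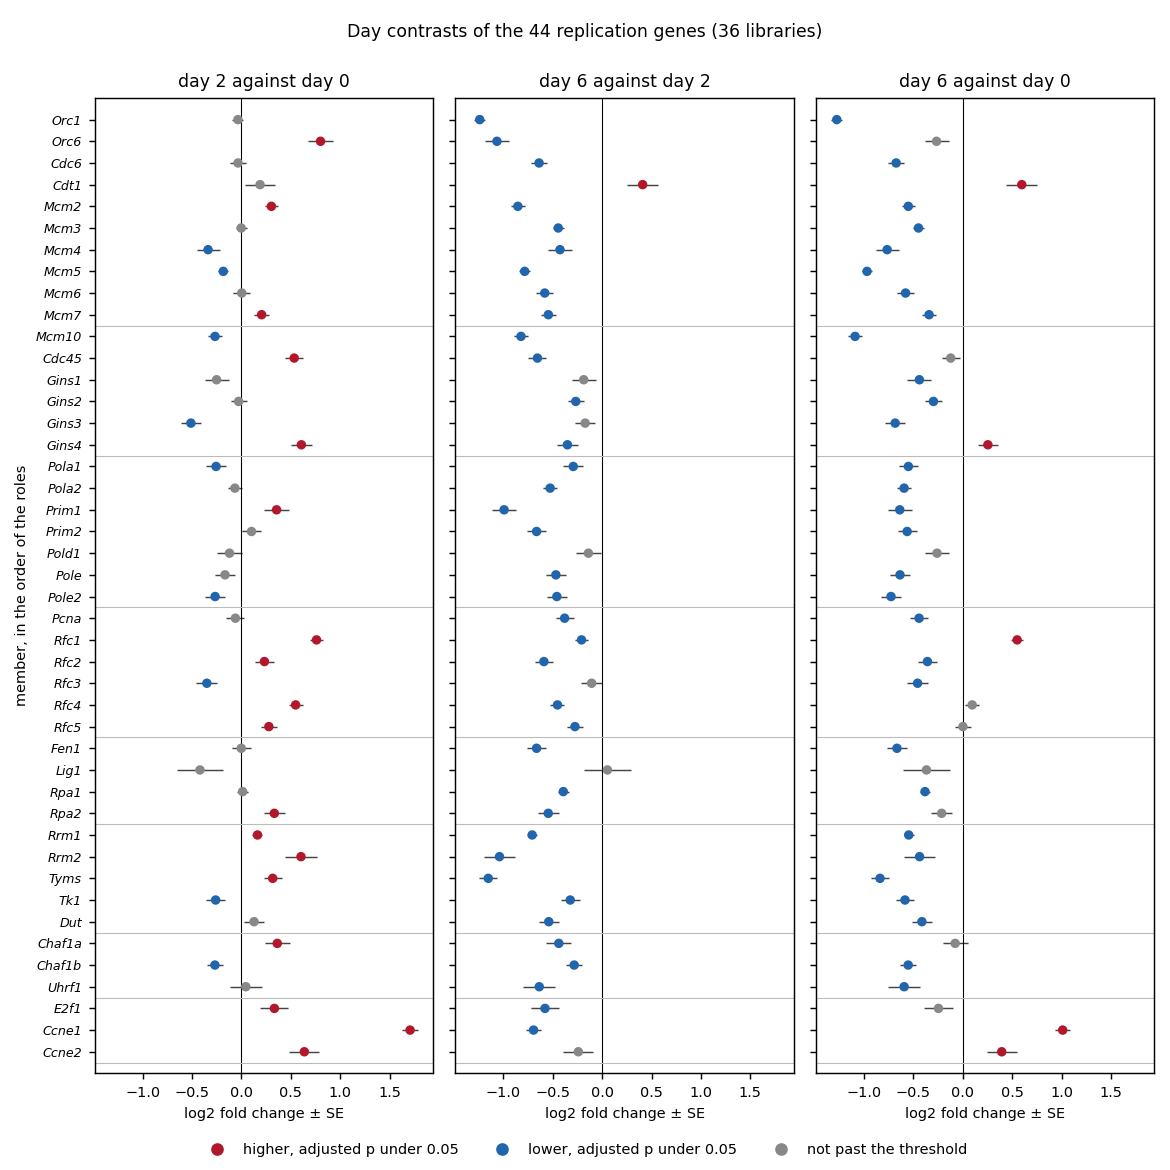
Points give the log2 fold change of each of the 44 members (rows, by role) for the 3 pairs of days, and bars its standard error, from the fit to all 36 libraries. Red and blue points were called higher or lower. The left panel has 18 red and 9 blue points, and the middle and right panels have 37 and 30 blue points.

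Since most members fell by day 6, their promoters were read for short motifs. RefSeq windows of 300 bases (250 before to 50 after a transcription start, GRCm38.p6) matched 36 of the 44 members, and 8 members (Prim2, Gins1, Gins2, Gins4, Ccne2, Pole, Rfc2 and Mcm4) had none. The E2F site was searched as TTTCCCGC, TTTCGCGC, TTTGCCGC or TTTGGCGC on both strands, and words on opposite strands may overlap. At least 1 of these words stood in a window of 14 of the 36 members (38.9%) and of 704 of all 27025 genes with a window (2.60%). Among the 24 of these members that were lower at day 6 than at day 0, 11 held one, and among the other 12, 3 did. The CHR element, TTTGAA, which is known from late cell-cycle promoters, stood in 4 member windows (11.1%, against 20.2% of all genes). CCAAT stood in 21 (58.3%, against 41.1%) and GGGCGG in 28 (77.8%, against 38.2%). A matching word describes the window and does not show binding. Of the windows shown, those of Orc1, Mcm5 and Mcm6 belong to members that fell by day 6, and those of Cdt1, Ccne1 and Rfc1 to members that rose. These windows were chosen by hand and do not stand for the 24 members that fell, of which 11 held a word. Mcm10, Tyms, Prim1 and Fen1 also fell, and their windows hold none. Capitals mark the E2F words. Orc1 holds 1 of them, Mcm5 2 and Mcm6 3, Cdt1 holds 1 just after the start, and the Ccne1 and Rfc1 windows hold none.
Orc1, chr4:108579204-108579503 (+): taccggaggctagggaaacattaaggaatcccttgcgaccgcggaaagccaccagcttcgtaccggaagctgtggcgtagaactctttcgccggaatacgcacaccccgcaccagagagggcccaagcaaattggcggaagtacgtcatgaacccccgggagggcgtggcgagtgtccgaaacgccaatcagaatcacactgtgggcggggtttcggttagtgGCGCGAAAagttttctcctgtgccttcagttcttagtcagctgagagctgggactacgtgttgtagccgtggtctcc
Mcm5, chr8:75109259-75109558 (+): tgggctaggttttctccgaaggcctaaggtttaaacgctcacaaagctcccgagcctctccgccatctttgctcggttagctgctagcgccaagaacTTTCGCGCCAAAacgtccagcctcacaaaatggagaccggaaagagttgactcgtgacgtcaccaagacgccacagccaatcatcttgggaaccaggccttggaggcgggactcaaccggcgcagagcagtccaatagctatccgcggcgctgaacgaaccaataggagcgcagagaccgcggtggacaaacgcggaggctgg
Mcm6, chr1:128359656-128359955 (-): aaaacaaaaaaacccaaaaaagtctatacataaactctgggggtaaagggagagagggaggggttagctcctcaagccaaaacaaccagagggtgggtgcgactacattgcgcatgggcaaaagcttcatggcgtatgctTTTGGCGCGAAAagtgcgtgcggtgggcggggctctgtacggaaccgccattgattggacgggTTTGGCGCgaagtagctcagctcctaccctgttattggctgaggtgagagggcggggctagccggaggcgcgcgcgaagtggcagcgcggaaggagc
Cdt1, chr8:122567765-122568064 (+): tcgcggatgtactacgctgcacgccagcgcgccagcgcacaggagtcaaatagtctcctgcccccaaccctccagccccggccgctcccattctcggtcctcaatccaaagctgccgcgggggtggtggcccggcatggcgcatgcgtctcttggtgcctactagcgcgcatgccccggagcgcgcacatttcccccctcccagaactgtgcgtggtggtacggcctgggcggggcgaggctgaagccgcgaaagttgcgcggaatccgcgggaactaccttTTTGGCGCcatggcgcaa
Ccne1, chr7:38107441-38107740 (-): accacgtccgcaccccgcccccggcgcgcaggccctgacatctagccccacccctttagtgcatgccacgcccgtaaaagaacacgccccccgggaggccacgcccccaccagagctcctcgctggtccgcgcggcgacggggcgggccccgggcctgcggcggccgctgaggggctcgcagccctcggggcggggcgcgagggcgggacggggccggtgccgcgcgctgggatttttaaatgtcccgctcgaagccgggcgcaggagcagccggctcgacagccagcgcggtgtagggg
Rfc1, chr5:65335590-65335889 (-): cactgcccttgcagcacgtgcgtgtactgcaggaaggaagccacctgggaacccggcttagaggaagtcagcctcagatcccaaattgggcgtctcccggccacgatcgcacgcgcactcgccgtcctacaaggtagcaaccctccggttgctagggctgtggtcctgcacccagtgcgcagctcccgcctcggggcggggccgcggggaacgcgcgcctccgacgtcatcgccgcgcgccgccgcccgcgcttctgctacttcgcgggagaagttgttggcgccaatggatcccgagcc

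Among the 10 genes of origin recognition and licensing, 8 were lower at day 6 than at day 0 and 1, Cdt1, was higher, while 3 had risen and 2 had fallen by day 2. Orc1, the subunit that ties the origin recognition complex to the cell cycle, changed most (chromosome 4, 108579423 to 108614833, + strand, GRCm38). In clone 48, Orc1 ranged from 21.5 to 25.3 CPM at day 0 (median 23.5), from 21.9 to 26.3 at day 2 (median 23.3) and from 9.15 to 10.8 at day 6 (median 9.40). Its range in clone 66 was from 19.1 to 23.3 CPM at day 0 (median 21.3), from 18.2 to 22.6 at day 2 (median 20) and from 8.34 to 10.03 at day 6 (median 8.62). All 12 day 6 libraries lay below all 24 earlier ones, and days 0 and 2 overlapped. The log2 fold change was -1.27 ± 0.057 (SE), adjusted p = 2.35e-20 from day 0 to day 6 and -0.036 ± 0.055 (SE), adjusted p = 0.57 from day 0 to day 2.

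Mcm5, a subunit of the ring, ranged in clone 48 from 356 to 449 CPM at day 0 (median 395), from 335 to 380.0 at day 2 (median 357) and from 176 to 219 at day 6 (median 193). Clone 66 gave Mcm5 values from 305 to 372 CPM at day 0 (median 340.4), from 281 to 313 at day 2 (median 291) and from 166 to 202 at day 6 (median 178). Day 6 stood apart from both earlier days in each clone, and days 0 and 2 overlapped. Mcm5 fell at each step, by a log2 fold change of -0.18 ± 0.052 (SE), adjusted p = 0.00207 to day 2 and -0.78 ± 0.052 (SE), adjusted p = 4.91e-15 from day 2 to day 6. Mcm4, another subunit of the ring, varied more between libraries. For Mcm4 the clone 48 values ran from 333 to 623 CPM at day 0 (median 539), from 315 to 430.1 at day 2 (median 373) and from 205 to 347 at day 6 (median 294), and those of clone 66 from 298 to 568 CPM at day 0 (median 521), from 323 to 435 at day 2 (median 415) and from 205 to 335 at day 6 (median 319.5). All 3 days overlapped in both clones, and the fitted log2 fold changes were -0.34 ± 0.12 (SE), adjusted p = 0.0102 to day 2 and -0.76 ± 0.12 (SE), adjusted p = 6.25e-07 from day 0 to day 6. The other ring subunits Mcm2, Mcm3, Mcm6 and Mcm7 were lower at day 6 than at day 0 by log2 fold changes between -0.58 (Mcm6) and -0.34 (Mcm7).

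Cdt1, the loading factor that is destroyed once S phase starts, went the other way. In clone 48, Cdt1 ranged from 83.0 to 167 CPM at day 0 (median 110.0), from 72.1 to 162 at day 2 (median 143) and from 111 to 185 at day 6 (median 139), with wide overlap. In clone 66, Cdt1 ranged from 71.1 to 155 CPM at day 0 (median 131), from 99.1 to 160.1 at day 2 (median 155) and from 188 to 243 at day 6 (median 227), and the 6 day 6 libraries lay above all earlier ones of that clone. Over both clones the log2 fold change from day 0 to day 6 was 0.60 ± 0.16 (SE), adjusted p = 0.000991. The rise from day 2 to day 6 (0.41 ± 0.15 (SE), adjusted p = 0.0215) was no longer called without clone 66 replicate 2 or 3 (0.39 in each case, adjusted p = 0.064 and 0.062). Orc6, another subunit of the origin complex, rose most of the group by day 2. Over the 12 libraries of a day, Orc6 read 102 to 181 CPM at day 0 (median 131), 171 to 304 at day 2 (median 245) and 83.0 to 158 at day 6 (median 114). Its log2 fold change was 0.80 ± 0.12 (SE), adjusted p = 4.53e-07 to day 2 and -1.06 ± 0.12 (SE), adjusted p = 2.6e-09 from day 2 to day 6, and in each clone the 6 day 2 libraries lay above those of the other days. For day 6 against day 0, Orc6 had -0.26 ± 0.12 (SE), adjusted p = 0.0541, and it was called lower under 8 of 17 alternatives.

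The 6 genes that activate the helicase divided. By day 2, 2 had risen (Cdc45 and Gins4) and 2 had fallen (Mcm10 and Gins3), and 4 were below day 0 and 1, Gins4, above it at day 6. Gins1 was not called for day 2 against day 0 (medians 16.6 and 18.4 FPKM) but passed the threshold under 10 of 17 alternatives. Mcm10, which helps the ring to start unwinding, ranged in clone 48 from 48.1 to 60.6 CPM at day 0 (median 56.1), from 40.0 to 52.9 at day 2 (median 48.5) and from 24.9 to 29.8 at day 6 (median 26.4). In clone 66, Mcm10 ranged from 50.6 to 77.2 CPM at day 0 (median 64.8), from 48.1 to 56.6 at day 2 (median 51.8) and from 26.2 to 33.3 at day 6 (median 29.1). Day 6 lay below both earlier days in either clone, with a log2 fold change of -1.09 ± 0.067 (SE), adjusted p = 2.32e-16 against day 0 and a smaller fall by day 2 (-0.27 ± 0.066 (SE), adjusted p = 0.000526). The 4 GINS subunits, which act as 1 complex, did not share a course. Gins3 in clone 48 ranged from 32.9 to 44.3 CPM at day 0 (median 36.2), from 20.7 to 28.9 at day 2 (median 26.4) and from 17.2 to 26.0 at day 6 (median 22.7), and in clone 66 from 35.3 to 47.5 CPM at day 0 (median 40.1), from 24.6 to 35.8 at day 2 (median 29.6) and from 19.5 to 37.6 at day 6 (median 25.3). Its day 2 and day 6 libraries lay below day 0 in clone 48 and overlapped with day 0 in clone 66, and the fall to day 2 was -0.51 ± 0.10 (SE), adjusted p = 2.97e-05. Gins4 ranged in clone 48 from 70.6 to 98.2 CPM at day 0 (median 76.9), from 91.7 to 151 at day 2 (median 126) and from 76.6 to 125 at day 6 (median 98.7), and in clone 66 from 61.5 to 85.2 CPM at day 0 (median 71.0), from 93.0 to 130.2 at day 2 (median 115) and from 65.8 to 121 at day 6 (median 76.5). Gins4 rose by 0.61 ± 0.10 (SE), adjusted p = 3.34e-06 to day 2, above every day 0 library in clone 66. Its log2 fold change from day 0 to day 6 of 0.26 ± 0.10 (SE), adjusted p = 0.0287 was not called under 6 of 17 alternatives, among them library size alone (0.035) and each of clone 48 replicates 1 and 2 and clone 66 replicates 1 and 2 left out (0.19 to 0.24).

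Of the 7 polymerase and primase genes, 6 were lower at day 6 than at day 0, and the exception, Pold1, the catalytic subunit of polymerase delta, had a log2 fold change of -0.26 ± 0.12 (SE), adjusted p = 0.0633 and was called lower under 8 of 17 alternatives. Prim1, the catalytic primase subunit that makes the RNA primers, rose and then fell. In clone 48, Prim1 ranged from 147 to 220.2 CPM at day 0 (median 154), from 148 to 231 at day 2 (median 219) and from 76.1 to 139 at day 6 (median 101). Clone 66 had Prim1 at values from 93.2 to 151 CPM at day 0 (median 112), from 134 to 214 at day 2 (median 163) and from 63.0 to 114 at day 6 (median 74.8). The day 6 libraries lay below the day 2 libraries within each clone (log2 fold change -0.99 ± 0.12 (SE), adjusted p = 1.39e-08), and the rise to day 2 (0.35 ± 0.12 (SE), adjusted p = 0.0101) came with overlapping ranges. That rise was not called without clone 66 replicate 2 (0.28) or with library size alone (0.048). Pola1, the polymerase that extends the primers, moved down at both steps. Its clone 48 range was from 244 to 314 CPM at day 0 (median 264), from 137 to 299 at day 2 (median 203) and from 141 to 222 at day 6 (median 183), and its clone 66 range from 137 to 199 CPM at day 0 (median 165), from 126 to 188 at day 2 (median 139) and from 111 to 133 at day 6 (median 119). Day 6 lay below day 0 in both clones (-0.55 ± 0.10 (SE), adjusted p = 1.1e-05). The steps to day 2 (-0.26 ± 0.10 (SE), adjusted p = 0.021) and from day 2 to day 6 (-0.29 ± 0.10 (SE), adjusted p = 0.0119) were not called under 2 and 3 of 17 alternatives, among them clone 48 replicate 2 left out for the first (-0.24) and clone 66 replicate 1 for the second (-0.21). Pole2, a subunit of polymerase epsilon, had clone 48 values from 45.6 to 65.8 CPM at day 0 (median 49.9), from 35.9 to 53.1 at day 2 (median 48.5) and from 23.5 to 35.2 at day 6 (median 31.0), and clone 66 values from 28.2 to 43.3 CPM at day 0 (median 34.2), from 24.3 to 33.4 at day 2 (median 28.8) and from 17.7 to 30.9 at day 6 (median 22.4). It was lower at day 6 than at day 0 (log2 fold change -0.72 ± 0.10 (SE), adjusted p = 1.24e-07), with separate ranges in clone 48 and overlapping ones in clone 66.

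Of the 6 genes of the clamp and its loader, 4 rose by day 2 and 1, Rfc3, fell, and 3 were below day 0 and 1, Rfc1, above it at day 6. Rfc1, the largest subunit of the loader, ranged in clone 48 from 173 to 233 CPM at day 0 (median 222), from 307 to 360.4 at day 2 (median 347) and from 261 to 320.1 at day 6 (median 296). In clone 66 it ranged from 167 to 224 CPM at day 0 (median 209), from 321 to 399 at day 2 (median 365) and from 253 to 357 at day 6 (median 326). The day 2 and day 6 libraries of both clones lay above every day 0 library. The log2 fold changes were 0.76 ± 0.063 (SE), adjusted p = 5.26e-13 to day 2 and 0.55 ± 0.063 (SE), adjusted p = 1.35e-09 from day 0 to day 6. Rfc3, a small subunit of the same loader, ranged in clone 48 from 81.9 to 136 CPM at day 0 (median 89.7), from 58.2 to 91.0 at day 2 (median 75.7) and from 52.1 to 87.0 at day 6 (median 68.6), and in clone 66 from 71.6 to 95.8 CPM at day 0 (median 84.1), from 55.4 to 77.2 at day 2 (median 67.4) and from 48.7 to 85.3 at day 6 (median 60.9). Rfc3 overlapped between all days in both clones, with fitted log2 fold changes of -0.35 ± 0.11 (SE), adjusted p = 0.00357 to day 2 and -0.46 ± 0.11 (SE), adjusted p = 0.000294 to day 6. Pcna, the clamp itself and a common marker of proliferating cells, read 214 to 395 CPM at day 0 (median 273), 218 to 340.0 at day 2 (median 255) and 168 to 267 at day 6 (median 208) over the 12 libraries of a day. It was -0.44 ± 0.09 (SE), adjusted p = 5.93e-05 at day 6 against day 0, and -0.062 ± 0.09 (SE), adjusted p = 0.543 at day 2, and its ranges overlapped between all days in both clones.

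In the group that joins Okazaki fragments and covers single-stranded DNA, 2 of 4 were lower at day 6 than at day 0 (Fen1 and Rpa1), and 1, Rpa2, had risen by day 2. Fen1, the flap endonuclease, ranged in clone 48 from 19.2 to 26.6 CPM at day 0 (median 20.7), from 19.5 to 24.1 at day 2 (median 20.9) and from 9.84 to 15.8 at day 6 (median 13.5). In clone 66, Fen1 ranged from 15.7 to 25.5 CPM at day 0 (median 17.8), from 16.6 to 24.7 at day 2 (median 19.0) and from 9.84 to 16.7 at day 6 (median 12.1). Its fall from day 0 to day 6 was -0.66 ± 0.10 (SE), adjusted p = 2.67e-07, with separate ranges in clone 48 and an overlap in clone 66. Lig1, the ligase that seals the fragments, read 35.9 to 153 CPM at day 0 (median 106), 41.9 to 108 at day 2 (median 75.7) and 26.8 to 127 at day 6 (median 73.3). Its libraries overlapped widely between days, and it passed the test in no pair of days (-0.42 ± 0.24 (SE), adjusted p = 0.109 for day 2 against day 0). With same-numbered libraries as a block it was called lower at day 2 and at day 6 than at day 0 (-0.39 and -0.37). Of 17 alternatives, 3 called Lig1 for day 2 against day 0 and 2 for day 6 against day 0, the block among them.

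All 5 genes of nucleotide supply were lower at day 6 than at day 0 and than at day 2. Tyms, which makes thymidylate, ranged in clone 48 from 134 to 181 CPM at day 0 (median 151), from 165 to 227 at day 2 (median 199) and from 64.2 to 104 at day 6 (median 83.4). Clone 66 had Tyms from 106 to 144 CPM at day 0 (median 126), from 132 to 181 at day 2 (median 155) and from 55.5 to 94.99 at day 6 (median 70.5). The day 6 libraries lay below those of both earlier days, with log2 fold changes of -1.15 ± 0.093 (SE), adjusted p = 6.02e-13 against day 2 and -0.84 ± 0.092 (SE), adjusted p = 7.4e-10 against day 0. Its rise to day 2 was 0.32 ± 0.092 (SE), adjusted p = 0.00261, with overlap in both clones, and 0.0072 with library size alone. Tk1, the thymidine kinase of S phase, ranged in clone 48 from 101 to 172 CPM at day 0 (median 131), from 117 to 139 at day 2 (median 123) and from 73.6 to 104 at day 6 (median 89.2), and in clone 66 from 105 to 186 CPM at day 0 (median 145), from 98.9 to 115 at day 2 (median 105) and from 78.9 to 124 at day 6 (median 86.7). Unlike Tyms it did not rise first, with -0.26 ± 0.10 (SE), adjusted p = 0.0144 to day 2 and -0.58 ± 0.10 (SE), adjusted p = 1.85e-06 to day 6, where all ranges overlapped except day 6 below day 2 in clone 48. Rrm2, the regulated subunit of ribonucleotide reductase, read 50.3 to 199 CPM at day 0 (median 124), 96.9 to 315 at day 2 (median 168) and 56.1 to 151 at day 6 (median 79.7), with 0.60 ± 0.16 (SE), adjusted p = 0.000919 to day 2 and -1.04 ± 0.16 (SE), adjusted p = 6.76e-07 from day 2 to day 6. At day 6 against day 0, Rrm2 had -0.44 ± 0.16 (SE), adjusted p = 0.0147, which was not called without clone 66 replicate 3 (-0.26) or without the clone term (-0.41). The fall of Tk1 from day 2 to day 6 (-0.32 ± 0.10 (SE), adjusted p = 0.0039) was not called without clone 48 replicate 2 (-0.23). Rrm1, the partner of Rrm2, followed the same course with smaller steps, 0.16 ± 0.05 (SE), adjusted p = 0.00471 and -0.71 ± 0.051 (SE), adjusted p = 2.83e-14, and the first step of Rrm1 turned to -0.15 with library size alone and was not called without clone 48 replicate 2 or clone 66 replicate 1 or 2 (0.099 to 0.11).

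The 3 genes that rebuild chromatin behind the fork all fell from day 2 to day 6. Uhrf1, which brings the maintenance methylase to new DNA, ranged in clone 48 from 114 to 197 CPM at day 0 (median 169), from 149 to 257 at day 2 (median 161) and from 65.7 to 169 at day 6 (median 94.2). For Uhrf1 in clone 66 the values ran from 127 to 248 CPM at day 0 (median 184), from 124 to 218 at day 2 (median 167) and from 71.7 to 159 at day 6 (median 137). Every pair of days overlapped, and the fitted change from day 2 to day 6 was -0.64 ± 0.16 (SE), adjusted p = 0.000848. Chaf1b, a subunit of the assembly factor CAF, ranged in clone 48 from 151 to 189 CPM at day 0 (median 159), from 114 to 156 at day 2 (median 122) and from 86.6 to 106 at day 6 (median 92.9), and in clone 66 from 131 to 156 CPM at day 0 (median 145), from 118 to 136 at day 2 (median 123) and from 95.1 to 148 at day 6 (median 109). It fell by day 2 (-0.27 ± 0.08 (SE), adjusted p = 0.00313) while its partner Chaf1a rose (0.36 ± 0.13 (SE), adjusted p = 0.011), and Chaf1a was not called different from day 0 at day 6 (-0.075 ± 0.13 (SE), adjusted p = 0.611). The rise of Chaf1a was not called without any 1 of the clone 66 replicates (0.27 to 0.29), and the fall of Chaf1b from day 2 to day 6 was not called without clone 48 replicate 2 (-0.17).

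The 3 genes of entry to S phase were all higher at day 2 than at day 0. Ccne1, cyclin E1, had the largest change of all members (chromosome 7, 38097984 to 38107534, - strand). In clone 48, Ccne1 ranged from 21.1 to 26.4 CPM at day 0 (median 22.5), from 60.9 to 77.0 at day 2 (median 70.2) and from 41.0 to 49.1 at day 6 (median 44.1). In clone 66, Ccne1 ranged from 16.7 to 26.7 CPM at day 0 (median 18.6), from 62.7 to 81.2 at day 2 (median 74.7) and from 39.7 to 50.4 at day 6 (median 41.7). The 3 days stood apart in both clones, with day 0 lowest and day 2 highest. The log2 fold change was 1.70 ± 0.079 (SE), adjusted p = 6.68e-20 to day 2, a 3.26-fold rise, and 1.01 ± 0.078 (SE), adjusted p = 9.13e-14 from day 0 to day 6. Ccne2, cyclin E2, varied far more, in clone 48 from 98.2 to 148 CPM at day 0 (median 114), from 71.5 to 241 at day 2 (median 143) and from 108 to 189 at day 6 (median 172) and in clone 66 from 67.5 to 114 CPM at day 0 (median 84.4), from 114 to 218 at day 2 (median 148) and from 93.6 to 142 at day 6 (median 113). Its rise to day 2 was 0.64 ± 0.15 (SE), adjusted p = 0.000403, with day 2 above day 0 without overlap in clone 66 alone, and its value at day 6 against day 0 (0.40 ± 0.15 (SE), adjusted p = 0.0224) was not called without clone 48 replicate 1 or 2 or clone 66 replicate 2 or 3 (0.31 to 0.37). E2f1, the factor that drives many of the genes above, read 23.2 to 43.1 CPM at day 0 (median 37.9), 28.3 to 56.0 at day 2 (median 48.2) and 16.2 to 38.3 at day 6 (median 29.1), with 0.33 ± 0.14 (SE), adjusted p = 0.0354 to day 2 and -0.58 ± 0.14 (SE), adjusted p = 0.000706 from day 2 to day 6. The rise of E2f1 was not called under 10 of 17 alternatives, DESeq2 (0.29) and library size alone (0.023) among them, nor without clone 48 replicate 2 or 3 or any 1 replicate of clone 66 (0.27 to 0.30). Without Gins4 and Ccne2, the members higher at day 6 than at day 0 were 3 (Cdt1, Rfc1 and Ccne1), which was the count without clone 48 replicate 1, clone 48 replicate 2 or clone 66 replicate 2.

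**Figure D3:**
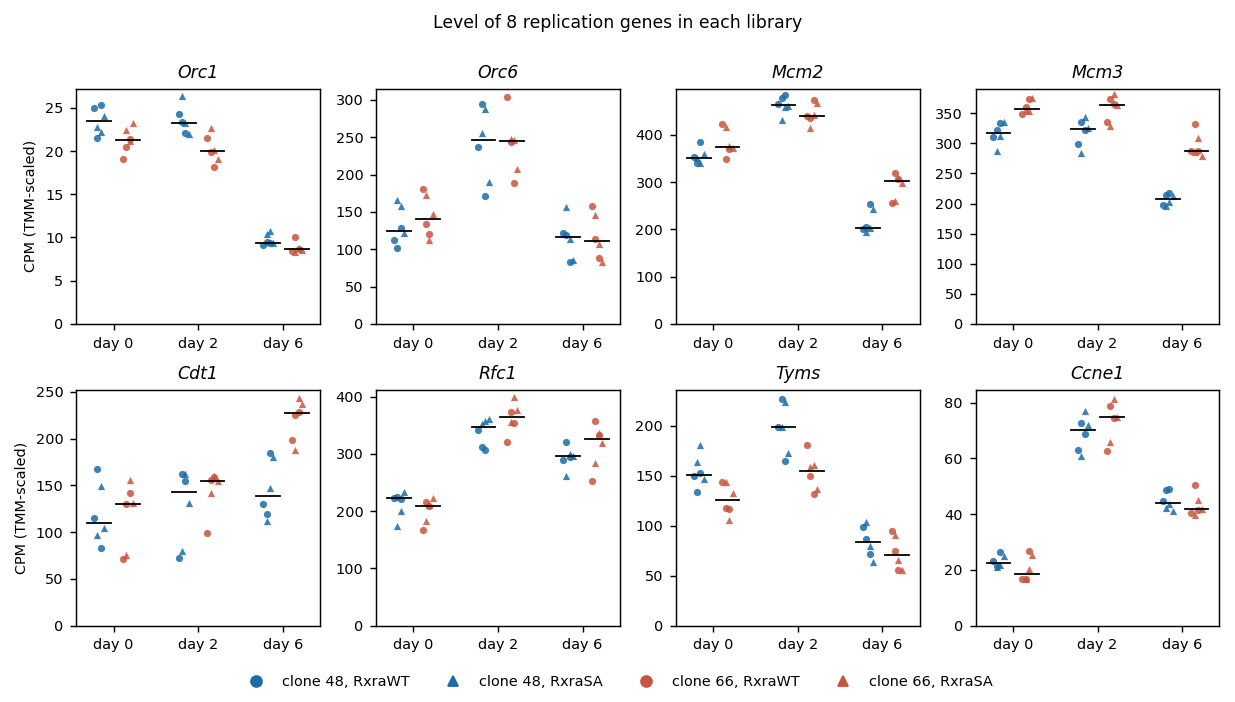
Each point is the CPM of 1 library, by day, for 8 members. Blue marks clone 48 and red clone 66, circles RxraWT and triangles RxraSA, and short lines the median of the 6 libraries. Orc1 drops at day 6, Orc6, Mcm2 and Tyms peak at day 2, Ccne1 and Rfc1 stay above day 0, and at day 6 Mcm2, Mcm3 and Cdt1 are higher in clone 66.

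Other genes of the cell cycle were taken from lists. Of 41 further replication genes, 22 rose and 8 fell by day 2, and 2 rose and 27 fell from day 2 to day 6, with 10 above and 18 below day 0 at the end. As shares, 53.7% rose and 19.5% fell by day 2 (all genes 36.9% and 35.9%), 4.88% rose and 65.9% fell from day 2 to day 6 (all genes 31.1% and 29.7%), and 24.4% and 43.9% ended above and below day 0 (all genes 34.0% and 33.3%). The medians were 0.26, -0.37 and -0.12. Pole4, a small subunit of polymerase epsilon, read 51.7 to 80.8 CPM at day 0 (median 63.0), 424 to 1003 at day 2 (median 763) and 76.0 to 113 at day 6 (median 91.9) and so peaked at day 2 (3.46 ± 0.13 (SE), adjusted p = 3.3e-22). Orc2, of the origin complex, peaked likewise (1.59 ± 0.10 (SE), adjusted p = 8.82e-16, then -1.37 ± 0.10 (SE), adjusted p = 9.57e-14). Asf1b, a histone chaperone, was higher at day 6 than at day 0 (1.39 ± 0.086 (SE), adjusted p = 2.44e-16) and Dscc1, of an alternative clamp loader, was lower (-1.30 ± 0.10 (SE), adjusted p = 3.11e-14).

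Mitosis genes were mostly lower by day 2 already. Of 16, 15 fell by day 2 and none rose (all genes 35.9% and 36.9%). Their median log2 fold change was -0.72, where that of the members was 0.028. From day 2 to day 6, 6 of the 16 rose and 2 fell (all genes 31.1% and 29.7%), with a median of 0.24 against -0.50 for the members. The share that rose was near that of all genes. At day 6, 14 were below day 0 (all genes 33.3%). Mki67, the proliferation marker, read 353 to 592 CPM at day 0 (median 454), 52.5 to 365 at day 2 (median 147) and 96.3 to 391 at day 6 (median 285), with -1.34 ± 0.26 (SE), adjusted p = 1.8e-05 to day 2. Cdc20, which triggers anaphase, read 131 to 200.3 CPM at day 0 (median 157), 47.3 to 97.8 at day 2 (median 68.3) and 78.3 to 122 at day 6 (median 104), with a rise of 0.56 ± 0.085 (SE), adjusted p = 6.81e-07 from day 2 to day 6. The summed level of the 44 members in clone 48 was 6827 to 7697 CPM at day 0, 7347 to 8263 at day 2 and 4881 to 5302 at day 6. In clone 66 it was 6573 to 7035, 7132 to 7594 and 5235 to 5869 CPM. The sum of the mitosis genes already lay lower at day 2 than at day 0 in each clone, at 2509 to 3956 against 4128 to 5308 CPM in clone 48 and 2057 to 2951 against 3680 to 4517 in clone 66. Whether the courses of the 2 lists differ was not tested.

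**Figure D4:**
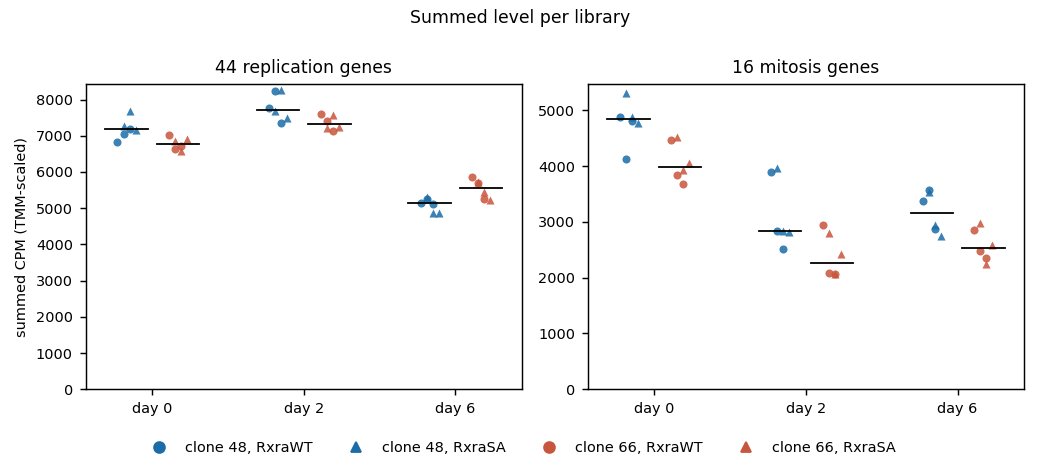
Points give the summed CPM of the 44 members (left) and of 16 mitosis genes (right) in each library, by day, with clones and genotypes marked by colour and shape and short lines for the median of 6 libraries. With CPM scaled by TMM, the members stay level or higher at day 2 and are lowest at day 6, whereas the mitosis genes are lower at day 2 than at day 0.

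The regulators of the step into S phase came next. Of 5 CDK inhibitor genes tested, 2 rose and 3 fell by day 2, and 4 rose from day 2 to day 6 (all genes 36.9%, 35.9% and 31.1%). Cdkn1a, the gene of a broad CDK inhibitor, read 3.10 to 33.2 CPM at day 0 (median 10.1), 45.1 to 239 at day 2 (median 113) and 30.3 to 176 at day 6 (median 110.1), with 3.20 ± 0.36 (SE), adjusted p = 7.49e-10 to day 2. Cdkn2c, an inhibitor of the cyclin D kinases, rose at both steps and reached 2.11 ± 0.09 (SE), adjusted p = 6.28e-21 at day 6 against day 0. Cdkn2b of the same list went the other way. It had -1.74 ± 0.091 (SE), adjusted p = 2.36e-18 to day 2 and -1.08 ± 0.09 (SE), adjusted p = 6.74e-13 at day 6 against day 0. Of 16 E2F and pocket protein genes, 9 rose and 4 fell by day 2 (all genes 36.9% and 35.9%). At day 6, 5 were above and 2 below day 0 (all genes 34.0% and 33.3%). The 31.2% above day 0 were near the 34.0% of all genes. Rb1, the retinoblastoma gene, read 23.5 to 40.6 CPM at day 0 (median 31.7), 53.5 to 74.4 at day 2 (median 66.6) and 97.1 to 151 at day 6 (median 124), and E2f2 rose with it (1.97 ± 0.074 (SE), adjusted p = 1.54e-22 and 2.81 ± 0.10 (SE), adjusted p = 5.89e-23 from day 0 to day 6). E2f7, a repressor of the family, fell by day 2 (-1.18 ± 0.15 (SE), adjusted p = 1.46e-08). Of 8 G1 and S cyclin and kinase genes, 2 were higher and 5 lower at day 6 than at day 0 (all genes 34.0% and 33.3%). Ccnd1 fell (-3.70 ± 0.34 (SE), adjusted p = 8.74e-12) and Ccnd2 rose (3.22 ± 0.29 (SE), adjusted p = 6.73e-12), both D cyclins, and Cdk4, their kinase, fell (-1.03 ± 0.10 (SE), adjusted p = 9.62e-12).

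The course over the days was then read in each clone. By day 6, 32 members were lower than at day 0 in clone 48 and 25 in clone 66, where 27.3% and 27.3% of all genes were lower, and all 25 of clone 66 were among the 32 of clone 48 (78.1% of them). Members higher at day 6 than at day 0 numbered 2 and 4 (all genes 28.2% and 29.2%). From day 2 to day 6, 33 members fell in clone 48 and 26 in clone 66 (all genes 24.9% and 22.9%), with 22 in common, which is 66.7% of the first list and 84.6% of the second. None rose in clone 48 and 1, Cdt1, rose in clone 66 (all genes 25.1% and 26.4%). By day 2, 12 members had risen and 6 had fallen in clone 48 (all genes 33.1% and 31.5%), and 13 had risen and 5 had fallen in clone 66 (30.6% and 30.2%). No member was called in opposite directions in the clones in any pair of days. The day 2 counts were the least stable, with 18 members called in clone 48 but 10 without its replicate 2, and 18 in clone 66 but 10 without its replicate 2. With library size alone, 4 members had risen and 19 had fallen by day 2 in clone 48, and 2 had risen and 19 had fallen in clone 66. With same-numbered libraries as a block, 12 had fallen in clone 48 and 9 in clone 66. The day of the highest median was shared by the clones for 35 members and the day of the lowest for 41.

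The clones were also compared with each other on each day, although clone 48 was sequenced in pool 1 and clone 66 in pool 2, so that clone and pool cannot be told apart. At day 0, 1 member, Mcm3, was higher and 6 were lower in clone 66, where 11.7% and 11.0% of all genes were. At day 2, 3 were higher and 10 lower, or 6 and 7 with same-numbered libraries as a block (all genes 13.7% and 14.9%). At day 6 it was 10 higher in clone 66 and 2 lower, or 5 and 4 with library size alone and 17 and 2 with same-numbered libraries as a block (all genes 13.5% and 11.5%). Pola1 was lower in clone 66 on every day, with log2 fold changes of -0.69 ± 0.15 (SE), adjusted p = 0.000927 at day 0 and -0.58 ± 0.15 (SE), adjusted p = 0.00391 at day 6. Rrm2 was lower at days 2 and 6 (-0.83 ± 0.23 (SE), adjusted p = 0.00716 and -0.82 ± 0.23 (SE), adjusted p = 0.00946), where the ranges of the clones did not overlap. Both were lost in places, Rrm2 at day 2 without clone 48 replicate 3 (-0.61) and at day 6 without clone 48 replicate 2 (-0.85), and Pola1 at day 2 without clone 48 replicate 1 (-0.26) or clone 66 replicate 2 or 3 (-0.48 and -0.47). Cdc6, which recruits Cdt1 to the origin, ranged in clone 48 from 55.8 to 70.8 CPM at day 0 (median 58.5), from 41.9 to 58.5 at day 2 (median 56.4) and from 29.9 to 37.5 at day 6 (median 31.3), and in clone 66 from 52.3 to 68.2 CPM at day 0 (median 60.2), from 58.6 to 82.7 at day 2 (median 64.5) and from 38.0 to 50.5 at day 6 (median 45.5). It was higher in clone 66 at days 2 and 6 without overlap (0.34 ± 0.11 (SE), adjusted p = 0.0185 and 0.44 ± 0.11 (SE), adjusted p = 0.00283), though the day 2 call was lost without clone 48 replicate 3 (0.25) or clone 66 replicate 1 (0.26). The call of Mcm3 at day 0 (0.19 ± 0.068 (SE), adjusted p = 0.0452) was lost without any 1 of the replicates but clone 48 replicate 3 (0.14 to 0.22). These counts moved with single replicates, from 7 at day 0 to 3 without clone 66 replicate 2 and to 11 without clone 66 replicate 1, from 13 at day 2 to 6 without clone 48 replicate 1 or clone 66 replicate 2 and to 8 without clone 66 replicate 3, and from 12 at day 6 to 6 without clone 48 replicate 2 and to 7 without clone 66 replicate 2.

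The difference between clones in the change from day to day was tested itself. For day 2 against day 0 no member was called by the quasi-likelihood test (all genes 6.22%), 3 had an unadjusted p under 0.05, DESeq2 called 1 (Mcm7), and the fit with same-numbered libraries as a block called 3. For day 6 against day 0 it was 1 member, Mcm3 (all genes 3.62%), and 6 with the block. For day 6 against day 2 it was 2, Mcm2 and Mcm3 (all genes 5.81%), and 6 with the block. In clone 48, Mcm2 ranged from 340.1 to 385 CPM at day 0 (median 352), from 431 to 483 at day 2 (median 463) and from 195 to 253 at day 6 (median 204). In clone 66, Mcm2 ranged from 348 to 422 CPM at day 0 (median 374), from 415 to 474 at day 2 (median 441) and from 256 to 319 at day 6 (median 303). The clones overlapped at days 0 and 2 and stood apart at day 6. Mcm2 fell by 1.09 on the log2 scale from day 2 to day 6 in clone 48 and by 0.61 in clone 66, a difference of 0.48 ± 0.11 (SE), adjusted p = 0.00657. Mcm3 in clone 48 ranged from 287 to 336 CPM at day 0 (median 318), from 283 to 343 at day 2 (median 324) and from 195 to 217 at day 6 (median 208), and in clone 66 from 349 to 375 CPM at day 0 (median 358), from 329 to 382 at day 2 (median 364) and from 279 to 332 at day 6 (median 287). Clone 66 lay above clone 48 at day 0 and at day 6, with overlap at day 2, and the gap at day 6 was 0.52 ± 0.068 (SE), adjusted p = 8.75e-07. The difference between clones in the change of Mcm3 was 0.33 ± 0.10 (SE), adjusted p = 0.0483 for day 6 against day 0 and 0.35 ± 0.10 (SE), adjusted p = 0.024 for day 6 against day 2. Over 14 alternatives the adjusted p of Mcm2 for day 6 against day 2 ranged from 0.00131 to 0.176, that of Mcm3 from 0.0032 to 0.509, and that of Mcm3 for day 6 against day 0 from 0.00723 to 0.652. The call of Mcm3 for day 6 against day 0 was lost without any 1 of the 6 replicates in this fit, and that for day 6 against day 2 without any but clone 48 replicate 1. That of Mcm2 was lost without clone 48 replicate 2 or clone 66 replicate 2.

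The study asked whether the replaced serine alters gene expression during differentiation, which for the members is the comparison of RxraSA with RxraWT on each day. The quasi-likelihood test called no member at day 0, 2 or 6 (all genes 0.0%, 0.0% and 0.0%), and no member had an unadjusted p under 0.05 with it or with DESeq2. Of all genes, 166, 207 and 150 had an unadjusted p under 0.05 on days 0, 2 and 6. Without any true difference, a well-calibrated test would place a share of about 0.05 of the 17589 genes there. These counts were far lower, so the test was conservative. Same-numbered RxraWT and RxraSA libraries deviated together, and the fit left this shared part in its error. Whether it widened the standard errors was not tested, as no fit paired the genotypes within a day. Log2 fold changes of RxraSA over RxraWT lay between -0.27 (Lig1) and 0.20 (Ccne2) at day 0, -0.094 (Pold1) and 0.13 (Rfc1) at day 2, and -0.14 (Rrm2) and 0.093 (Pold1) at day 6, with standard errors of 0.071 to 0.33 at day 0. The signs leaned, with 29 of 44 members above 0 at day 0, 29 below 0 at day 2 and 34 below 0 at day 6 (medians 0.063, -0.011 and -0.04, all genes -0.0091, -0.013 and -0.0081). This lean was not tested. The member with the smallest p at day 0 was Cdc6, which ranged from 52.3 to 68.2 CPM in the 6 RxraWT libraries (median 57.1) and from 55.8 to 70.8 in the 6 RxraSA libraries (median 65.2) (log2 fold change 0.15 ± 0.12 (SE), 95% interval -0.078 to 0.38). At day 2 it was Rfc1, from 307 to 373 CPM in the 6 RxraWT libraries (median 331) and from 353 to 399 in the 6 RxraSA libraries (median 359) (log2 fold change 0.13 ± 0.088 (SE), 95% interval -0.039 to 0.31). At day 6 it was Rrm1, from 233 to 308 CPM in the 6 RxraWT libraries (median 280.2) and from 233 to 298 in the 6 RxraSA libraries (median 240.4) (log2 fold change -0.11 ± 0.071 (SE), 95% interval -0.25 to 0.03). The genotypes overlapped in each of these cases. The intervals, taken as 1.96 standard errors to either side, leave room for differences of that width, and a missed threshold does not show equal levels. They rest on the fit without pairing.

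The change over time was not called different between the genotypes for any member, in any pair of days (all genes 0.0%, 0.0% and 0.0%), and again none had an unadjusted p under 0.05 with either tool. This test also used the fit without pairing and was conservative. Only 176 (day 2 against day 0), 147 (day 6 against day 0) and 183 (day 6 against day 2) of all 17589 genes had such a p. For day 6 against day 0, the difference was below 0 for 35 of 44 members (median -0.088, all genes -6.1e-05). When same-numbered libraries were fitted as a block over all days, Lig1 alone of the members had an unadjusted p under 0.05. It did so at day 0 (log2 fold change -0.37) and for the change from day 0 to day 2 (0.52), with an adjusted p of 1 from edgeR in both cases. Lig1 shares exon bases with Zswim9 on the opposite strand.

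**Figure D5:**
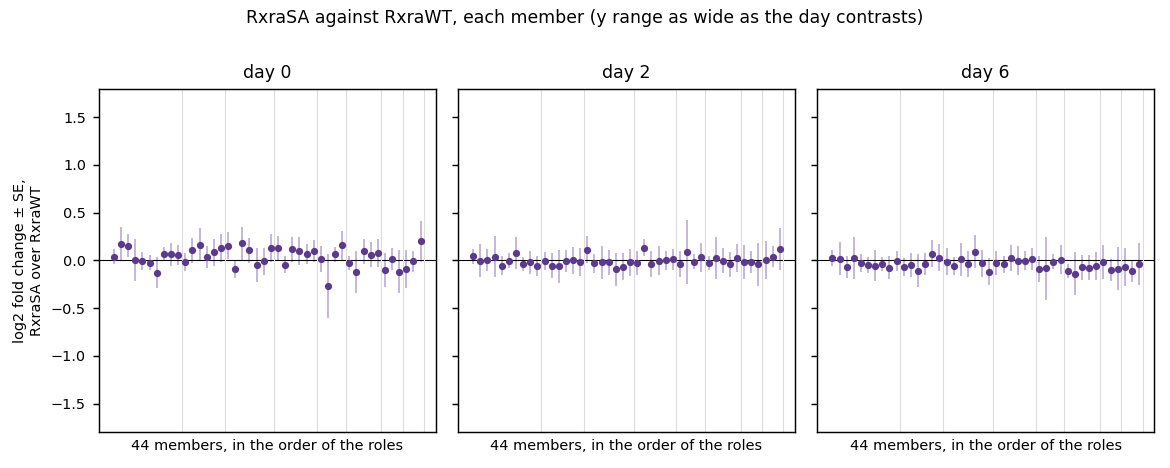
Points give the log2 fold change of RxraSA over RxraWT for each of the 44 members on days 0, 2 and 6, with bars of 1 standard error, in the order of the roles. All points lie between -0.27 and 0.20, with 29 of 44 above 0 at day 0 and 34 of 44 below 0 at day 6.

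Exons of 16 members overlap those of another annotated gene, in 14 cases a gene on the opposite strand, and the counting neither used the strand nor kept read pairs that fell on more than 1 gene. Orc1, Orc6, Cdc45, Mcm7, Rfc4, Rfc5, Fen1, Tk1, Chaf1a and Ccne2 are among them, and their levels are uncertain to that extent. Mcm2, Mcm3, Mcm5, Mcm10, Rfc1, Tyms and Ccne1 had no such overlap.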

How the data were processed

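RNA was extracted from 36 samples, and the authors made stranded total RNA libraries (TruSeq) and sequenced them on a NextSeq. The deposited files hold raw read-pair counts per gene, 1 file per library. Per the labels and methods, the authors aligned pairs to GRCm38 with STAR 2.7.0d and counted them over GENCODE M21 exons with featureCounts 1.6.2, without strand and without multi-mapping or ambiguous pairs, and fitted edgeR 3.24.3. Total counts per library had a median of 18338726. The smallest member count was 147, for Orc1. Counting error was not compared with the spread between libraries for each member.

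Here the counts were fitted with edgeR 4.0.16 in R 4.3.3 (quasi-likelihood test, TMM, groups of genotype and day plus clone, all 36 libraries), after a filter on low counts (filterByExpr) that left 17589 of 55536 genes. Clone comparisons used groups of clone, genotype and day. P-values were adjusted over all genes tested with a threshold of 0.05, and intervals are 1.96 standard errors to either side (95%). Symbols came from GENCODE M21. The fits were tested on simulated data.

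Members and lists (origin and licensing, helicase activation, polymerases, clamp, Okazaki fragments, nucleotide supply, chromatin, entry to S phase, other replication genes, E2F and pocket proteins, G1 and S cyclins, CDK inhibitors, mitosis and cell type markers) were chosen with earlier results of these data known. Values in each clone and day were given for the member with the largest called day change in each role, members called against the direction of most, the member with the smallest p in each genotype comparison, and those called in the clone by time comparisons. Other members are named besides, some after their values were seen, and of the other lists at most 3 genes per pair of days, those with the largest called changes. Alternatives were a Wald test in DESeq2 1.42.0, scaling by RLE or by library totals without TMM, 2 other filters on low counts, a newer quasi-likelihood version, a model without clone, a block for the replicate number, a term for every clone, genotype and day, a fit to the libraries of the 2 days compared, each of the 6 clone replicates left out, and clone 48 RxraSA day 0 replicate 1 left out alone, 17 in all (14 for clone by time).

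Same-numbered RxraWT and RxraSA libraries of a clone and day deviated together over 9381 genes (r from 0.176 to 0.930 over 18 pairs, mean 0.710), so the numbers pair the genotypes within a day, though no label names a shared batch. Across days the correlations ranged from -0.33 to 0.88.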

Additional observations from a re-analysis of the deposited data

Results flagged for a closer look

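The named members were read in 138 sets of 6 libraries, those of a gene in 1 clone on 1 day, for a library far from the rest. In 4 of these sets the gap between the highest or lowest library and the next was wide for the range of the set, where chance gives about 1 in 20. Fewer sets were thus flagged than that share would give. Orc1 read 10.03 CPM in clone 66 RxraWT replicate 2 at day 6, and the other 5 libraries lay between 8.34 and 8.81. Clone 48 RxraSA replicate 2 at day 0 was high for 2 members, with 136 CPM for Rfc3 (the others 81.9 to 100.8) and 189 CPM for Chaf1b (the others 151 to 164). Cdt1 read 99.1 CPM in clone 66 RxraWT replicate 1 at day 2, below the 142 to 160.1 CPM of the others.

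The test of the difference between clones in the change over time called Mcm3, by 0.33 (log2) for day 6 against day 0 and 0.35 for day 6 against day 2, and Mcm2, by 0.48 for day 6 against day 2. In each case the fall was smaller in clone 66. The first call of Mcm3 was made in 4 of 14 alternatives (adjusted p up to 0.652, edgeR) and the second in 8 of 14 (up to 0.509), and with single clone replicates left out they were lost in 6 and 5 of 6 cases. The call of Mcm2 was made in 11 of 14. Clone and sequencing pool cannot be told apart here.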

How the results depend on the processing

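Over 17 alternatives and the 3 pairs of days, the values of the 44 members kept direction and side of the threshold in 2115 cases, gained the threshold in 55, lost it in 66 and turned in 8. The 8 came with library size alone, from day 0 to day 2 for Mcm2 (-0.0041), Mcm6 (-0.31), Mcm7 (-0.10), Rfc2 (-0.078), Rfc5 (-0.032), Rpa1 (-0.29) and Rrm1 (-0.15), and from day 0 to day 6 for Rfc5 (-0.22). The cause was not tested beyond the shift of all genes under that scaling. It called 6 members higher and 23 lower at day 2 against day 0, 3 higher at day 6 against day 0, 4 higher and 19 lower at day 2 in clone 48, 2 and 19 in clone 66, 5 higher and 4 lower in clone 66 than clone 48 at day 6, and for clone by time 1 (day 2 against day 0) and 0 (day 6 against day 0).

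A minimum of 1 CPM in 6 libraries called 3 members higher at day 6 against day 0 and 8 lower at day 2 in clone 66. With no filter, the clone comparison called 0 higher at day 0 and 8 at day 2 (5 lower), clone by time called 0 for day 6 against day 0 and 0 against day 2, and 2 members were lower at day 2 in clone 66. DESeq2 called 8 lower there and 1 for clone by time (day 2 against day 0), and RLE scaling called 8 lower there and 0 for clone by time (day 6 against day 0). With the replicate number as a block, a block held the libraries of 1 clone and number over all 3 days. That fit called 18 members higher and 11 lower at day 2 against day 0. It called 5 and 35 at day 6 against day 0, and 1 and 39 at day 6 against day 2. With the block, 12 members were lower at day 2 and 4 higher at day 6 against day 0 in clone 48, 9 were lower at day 2 in clone 66, 2 were higher in clone 66 than clone 48 at day 0, 6 at day 2 and 17 at day 6 (19 in all), and clone by time called 3 members for day 2 against day 0, 6 for day 6 against day 0 and 6 for day 6 against day 2. The block changed no call of RxraSA against RxraWT. No fit paired the genotypes within each day, so calls under that pairing were not tested.

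With 1 replicate left out, members called higher ranged from 3 to 5 (day 6 against day 0) and 0 to 1 (day 6 against day 2, also in clone 66 alone). At day 2 against day 0 they ranged from 10 to 21 in clone 48 (6 to 12 higher, 3 to 9 lower) and 10 to 20 in clone 66 (6 to 12, 3 to 8). Between clones they ranged from 3 to 11 at day 0 (0 to 1 higher, 3 to 10 lower), 6 to 13 at day 2 (1 to 4, 5 to 10) and 6 to 17 at day 6 (5 to 11, 1 to 7). Clone by time calls ranged from 0 to 1, 0 to 2 and 0 to 2. Where a clone replicate was left out, its 6 libraries were dropped together. The lowest count of any member in any library was 147.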
